A study of Mus musculus with 21 samples.

Results

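Fibroblasts taken from mouse lungs 7 days after silica were compared with fibroblasts from untreated lungs, gene by gene. Silica starts what the series calls its progressive model of lung fibrosis, and day 7 is its first time point. The comparison used 6 of the 21 libraries of the series, 3 labelled SiO2 day 7 and 3 labelled untreated, and all 23204 deposited gene symbols, of which 11669 had enough counts to be tested. All mice were female, C57BL/6 and Col1a2-GFP transgenic, with no other allele stated, and no age was given in the labels. The silica group received crystalline silica particles at 400 mg/kg, and the group used as a further reference, BLM day 7, received bleomycin sulfate at 2 mg/kg, each once and by oropharyngeal aspiration in saline. The controls were untreated and were not given saline, so the effect of silica and that of the aspiration cannot be told apart. SiO2 day 14 is the next time point of the silica model. Cells were sorted as lineage negative (CD45, CD31, EpCAM, CD146 and Ter119), propidium iodide negative and GFP positive. Since the reporter is driven by the Col1a2 promoter, cells with little Col1a2 promoter activity were not sampled. Tags from the 3′ ends of polyadenylated RNA of 10000 sorted cells per library were counted (3′SAGE-seq).

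Fibroblasts build and remodel the matrix of the alveolar wall and of the sheaths around vessels and airways. In healthy lung most belong to resident populations, among them lipid-storing alveolar fibroblasts and adventitial fibroblasts. After injury such cells can divide, contract and secrete collagen, and signals such as TGF-β, BMP, Wnt and platelet-derived growth factor tune this response. Inhaled crystalline silica is taken up by macrophages, stays in the lung and causes silicosis, in which nodules of collagen form.

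Levels are given as CPM (counts scaled to a common library total) after scaling by the TMM method, and changes, marked log2, as the log2 fold change ± SE from edgeR's quasi-likelihood model. Levels with ± are mean ± SD, with n = 3 libraries per group. A gene rose or fell where its p adjusted over all 11669 tested genes by the Benjamini-Hochberg method was under 0.05. The labels do not say that the 3 libraries of a group came from separate mice. The p-values set each difference against the spread between libraries within the 7 groups fitted together, which may be technical. In sorted bulk cells, fewer cells of a type and less RNA per cell cannot be told apart.

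The silica libraries held 3821214 to 4159193 counts and the untreated ones 2080636 to 3974734. The lowest total was that of untreated replicate 3. The share of counts on ribosomal RNA genes was 0.174% to 0.219% in untreated and 0.357% to 0.429% in silica libraries, and what part this had in the results was not tested. Summed over the 12 general fibroblast markers, collagen genes among them, the level was 27962 to 30771 CPM in untreated and 38734 to 41822 CPM in silica libraries. The genes of the sort itself were near 0. Ptprc, which encodes CD45, had 1 count over the 3 untreated and 1 over the 3 silica libraries, Pecam1 (CD31) had 2 and 0, Epcam had 2 and 3, and Mcam (CD146) had 0 and 9.

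Markers of other cell types were counted beside these results, and their part in them was not tested. Summed over 17 deposited myeloid markers the level was 12.2 to 33.7 CPM in untreated and 33.7 to 35.9 CPM in silica libraries. Of 6 tested myeloid markers 3 rose, among them Ctss, whose call was lost under 11 of 13 alternatives. Fcer1g was at 0 in all 6 libraries. For 9 lymphocyte markers it was 4.92 to 10.8 and 30.3 to 72.7 CPM, nearly all of it from the chemokine gene Ccl5, with Cd3g and Cd79b at 0. For 15 epithelial markers it was 30.4 to 45.4 and 42.0 to 67.0 CPM. Of the 4 tested epithelial markers, surfactant genes Sftpb (log2 2.73 ± 0.39) and Sftpc (log2 2.06 ± 0.35) rose and the club cell gene Scgb3a1 (log2 -1.49 ± 0.46) fell. For 12 endothelial markers the sum was 32.4 to 36.5 and 9.37 to 21.3 CPM, with Cdh5, Cldn5 and Vwf at 0 in every library. For 14 pericyte and smooth muscle markers it was 105 to 127 and 208 to 229.5 CPM, and Higd1b was at 0. For 6 Schwann cell markers it was 6.99 to 11.1 and 4.26 to 7.44 CPM and for 8 erythroid and platelet markers 3.11 to 8.43 and 16.6 to 21.5 CPM. For 12 mesothelial markers it was 667 to 886 CPM in untreated and 203 to 303 CPM in silica libraries. The 2 ranges did not overlap for the lymphocyte, endothelial, pericyte and smooth muscle, erythroid and platelet, and mesothelial sums. Of 4 tested endothelial markers 1 rose and 2 fell, and the fall of Kdr was not called under some alternatives. Of 9 tested mesothelial markers 7 fell, and 4 without SiO2 day 7 replicate 3.

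Between silica and untreated libraries the level of 5104 tested genes differed, 43.7% of them, with 2713 higher in silica (23.2%) and 2391 lower (20.5%). At least 2-fold changes were counted for 1301 of the higher genes (11.1%) and 1114 of the lower (9.55%). For 51.5% of tested genes the silica and untreated libraries did not overlap. The median log2 fold change of all tested genes was 0.04. With shares this large, a list of genes is read below against these percentages and not against 0. Where a list is given with 0 calls in a direction, DESeq2 and limma-voom also gave 0, and 0 of its members had an unadjusted p under 0.05 that way unless a number is given.

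**Figure D1:**
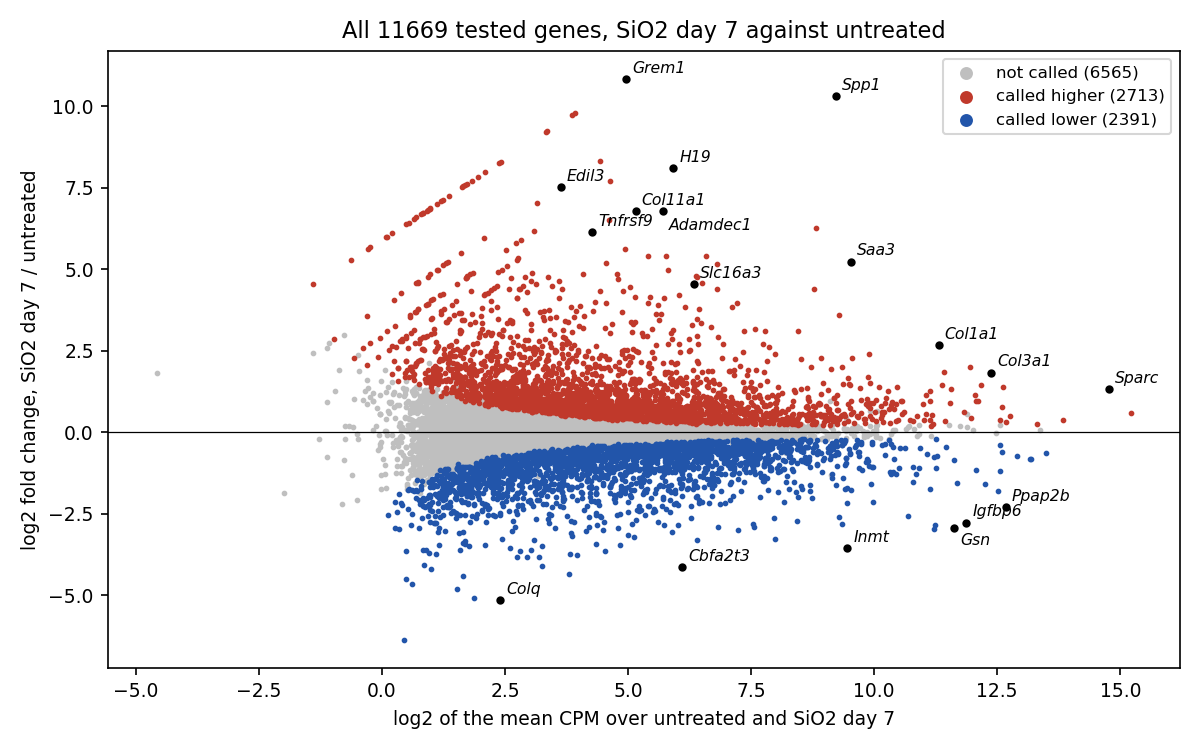
Each point is 1 of 11669 tested genes, placed by the log2 of its mean CPM over the untreated and silica libraries (x axis) and by its log2 fold change between them (y axis), with called genes in colour. The 2713 higher and 2391 lower genes spread over most of the range of levels, and the lines of points at the upper left are genes at or near 0 counts in untreated lungs, whose fitted fold is no bound.

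Several of the genes that rose most were nearly silent in untreated lungs. Ptprn, a member of the receptor-type phosphatase family, had 0 counts in the 3 untreated libraries. It was at 31.1, 25.8 and 34.7 CPM in the silica libraries, at least 102-fold higher. The glutamate receptor accessory gene Shisa6, also at 0 in untreated lungs, was at least 68.2-fold higher, and Tnfsf11, which encodes the osteoclast factor RANKL, at least 35.5-fold higher. All 3 were detected in each silica library. The imprinted long noncoding RNA H19 went from 0.777, 0.251 and 0 CPM to 106, 115 and 139 CPM (log2 8.11 ± 0.50, adjusted p = 6.60e-11). The protease gene Adamdec1 went from 1.81, 0.251 and 0.468 to 121, 124 and 65.8 CPM (log2 6.79 ± 0.53, adjusted p = 2.14e-08), and Edil3, an integrin ligand, from 0.156 ± 0.270 to 24.6 ± 3.27 CPM, a ratio of 246-fold (95% counting interval 43.7 to 9733). The rule that named the genes of this paragraph took only ones whose silica and untreated libraries did not overlap. Their separation was thus set in advance. Kif26b, a kinesin-like gene, had 2 counts over the untreated libraries and 582 over the silica ones, a ratio of 248-fold (95% counting interval 68.4 to 2054).

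Among the genes that fell most, Colq, which encodes the collagen tail that anchors acetylcholinesterase, went from 13.0, 8.54 and 9.36 CPM to 0.251, 0.266 and 0.253 CPM, a ratio of 40.7-fold (95% counting interval 13.5 to 200.3) between untreated and silica libraries. The β3 adrenergic receptor gene Adrb3 (log2 -3.56 ± 0.42), the AMPA receptor subunit gene Gria1 (log2 -3.62 ± 0.41) and the desmosomal linker gene Ppl (log2 -3.78 ± 0.47) fell. These genes and Colq were named by a rule that took only genes without overlapping libraries. Measured in CPM, abundant genes lost most. The lipid phosphatase gene Ppap2b went from 11577, 10399.8 and 10453 CPM to 2611, 2093 and 1914 CPM (log2 -2.29 ± 0.22, adjusted p = 3.65e-07). The septin gene Sept4 (log2 -1.79 ± 0.13) and the selenium transporter gene Sepp1 (log2 -1.60 ± 0.12) also fell. Among genes that gained most CPM, the collagen-binding glycoprotein gene Sparc went from 16099, 16307 and 15578 CPM to 43927, 37375 and 38544 CPM (log2 1.32 ± 0.09, adjusted p = 6.86e-15). The elongation factor gene Eef1a1 (log2 0.60 ± 0.08) and the ribosomal protein gene Rpl8 (log2 0.37 ± 0.08) rose by less than 2-fold, and near-identical copies of both make their counts uncertain.

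**Figure D2:**
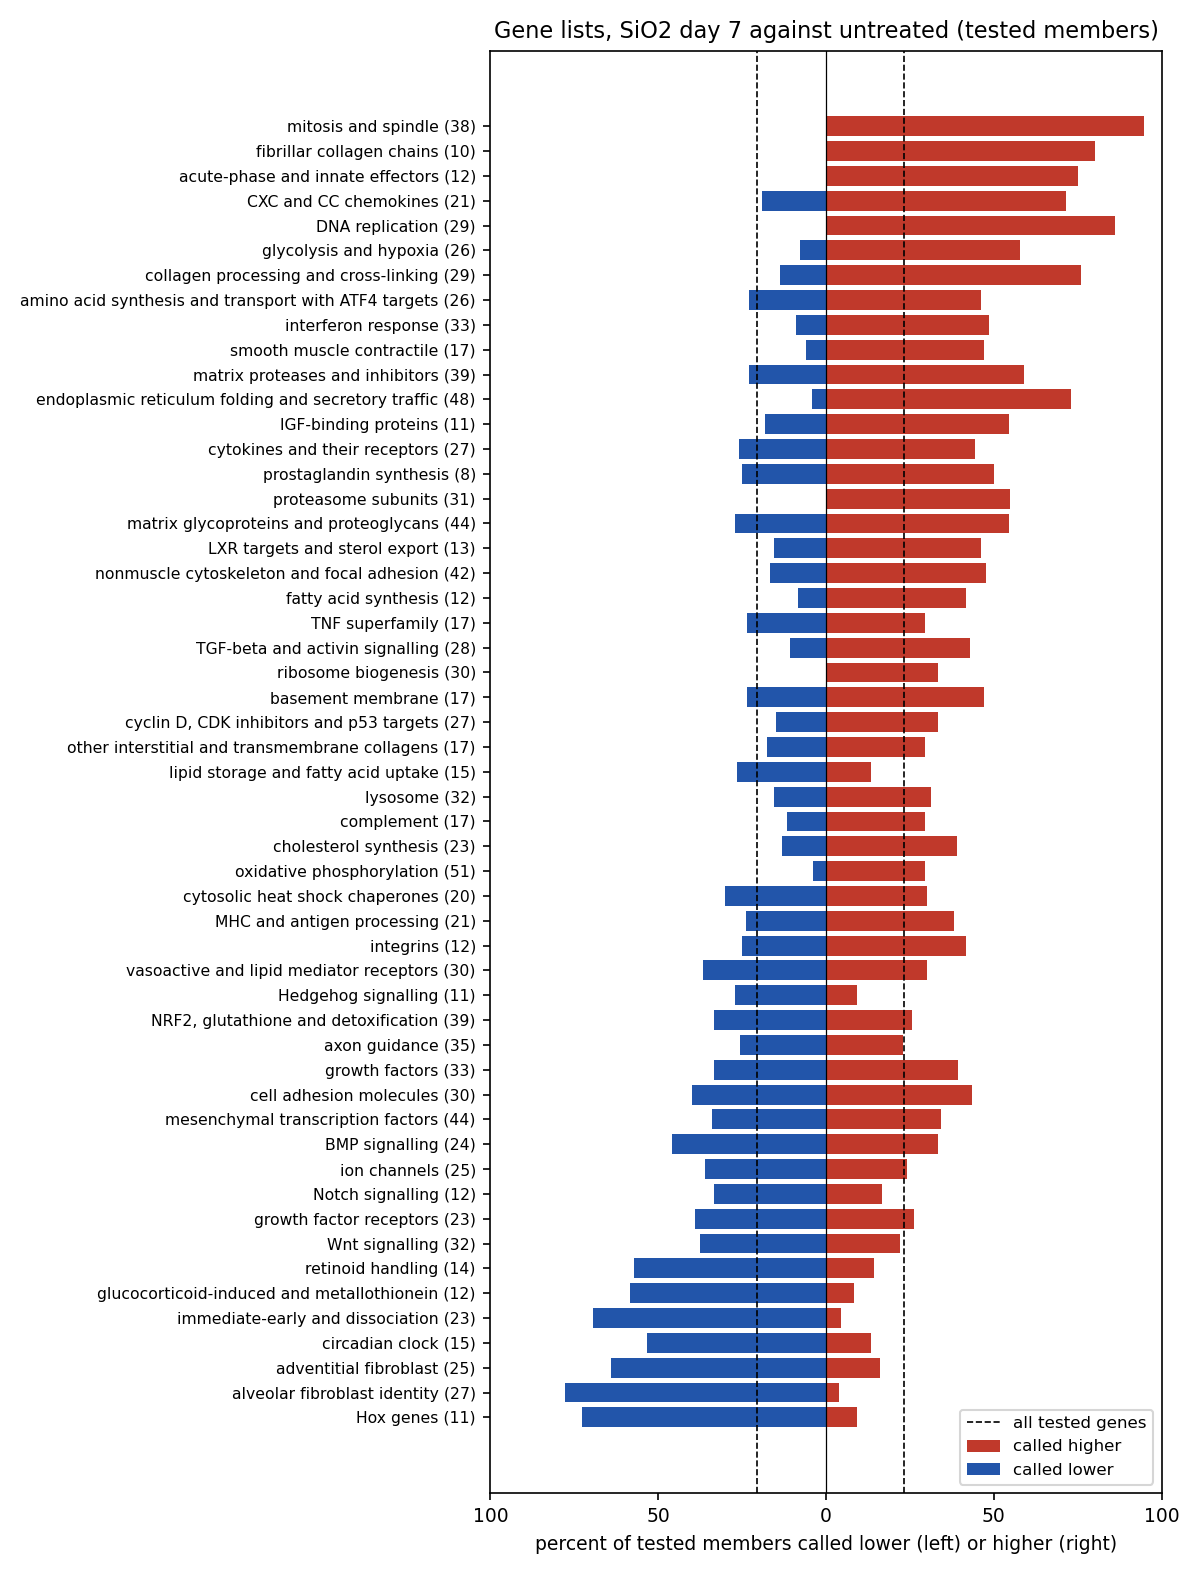
Bars give the percent of tested members of each gene list called higher (right) or lower (left) with silica, and dashed lines mark 23.2% and 20.5%, the shares over all tested genes. Lists are ordered by their median log2 fold change, and the number of tested members follows each name.

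Genes for fibrillar collagen chains, which form the load-bearing fibres of scar, rose together. Of these, 8 of 10 rose and 0 fell (1 lower without SiO2 day 7 replicate 2), with a median log2 fold change of 2.44 against 0.04 for all tested genes. The minor chain gene Col11a1, which helps start fibrils, went from 1.04, 0.251 and 0.468 CPM to 40.4, 124 and 47.6 CPM (log2 6.79 ± 1.11, adjusted p = 0.000146). SiO2 day 7 replicates ranged more widely here than for the major chain gene Col1a2, at 6669, 5979.8 and 6436 CPM. Col5a1, another regulator of fibril diameter, rose by log2 2.28 ± 0.13, and Col27a1 was not called (log2 -0.45 ± 0.22) unless SiO2 day 7 replicate 2 was left out. The remaining interstitial and transmembrane collagens did not move as one, since 5 of 17 rose and 3 fell. Col7a1, the anchoring fibril collagen, went from 54.7, 43.5 and 39.3 to 439, 404 and 346 CPM (log2 3.10 ± 0.20). Col13a1, a transmembrane collagen of alveolar fibroblasts, went the other way, from 1807, 1696 and 1412 to 434, 383 and 305 CPM (log2 -2.13 ± 0.16, adjusted p = 2.69e-10). The groups did not overlap for either gene.

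Genes whose products modify, cleave and cross-link collagen were mostly higher, with 22 of 29 higher and 4 lower and a median of 0.90. The prolyl hydroxylase subunit gene P4ha3 rose from 11.8 ± 1.77 to 161 ± 7.70 CPM (log2 3.79 ± 0.24), and P4hb, which encodes the partner subunit protein disulfide isomerase, by log2 1.37 ± 0.10. Bmp1, the protease that trims the ends of procollagen, rose by log2 2.45 ± 0.19 and the lysyl oxidase gene Loxl2 by log2 1.90 ± 0.13. Pcolce2, which enhances the action of Bmp1, fell (log2 -3.29 ± 0.18).

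Among matrix glycoproteins and proteoglycans 24 of 44 rose and 12 fell, with a median of 0.43. The fibrillin gene Fbn2, active mainly in development, was at 0, 0.502 and 0 CPM in untreated and 12.8, 14.6 and 11.6 CPM in silica libraries, a ratio of 64.8-fold (95% counting interval 17.6 to 540.0). Cthrc1, a secreted protein that marks activated fibroblasts, rose with a ratio of 82.7-fold (95% counting interval 14.5 to 3300.1). Fbn1, the adult fibrillin gene, rose by log2 1.28 ± 0.11 and elastin Eln by log2 0.87 ± 0.20. Prelp, a leucine-rich proteoglycan, went from 553, 597 and 552 to 177, 181 and 152 CPM (log2 -1.74 ± 0.10, adjusted p = 3.06e-17). Efemp1, a fibulin, fell (log2 -1.92 ± 0.18) and the tenascin gene Tnxb also fell (log2 -2.68 ± 0.31). Summed over the whole list the level was 29871 to 30649 CPM in untreated and 23352 to 26864 CPM in silica libraries, so this list had more higher than lower members but a lower sum.

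Basement membrane genes had 8 of 17 higher and 4 lower. The nidogen gene Nid2 went from 5.70, 9.04 and 6.09 to 56.9, 78.1 and 128 CPM (log2 3.62 ± 0.29, adjusted p = 1.05e-09). Collagen IV chain genes Col4a1 (log2 1.70 ± 0.18) and Col4a2 (log2 1.31 ± 0.10) rose, and another chain gene, Col4a6, fell (log2 -0.97 ± 0.23). Laminin Lamc1 was not called (log2 0.07 ± 0.10). Among integrins, the receptors for these ligands, 5 of 12 rose and 3 fell. The collagen receptor Itga1 (log2 3.06 ± 0.25), the fibronectin receptor Itga5 (log2 2.65 ± 0.38) and the TGF-β-activating Itgb8 (log2 2.01 ± 0.26) rose, and Itga3 fell (log2 -1.96 ± 0.33).

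Of matrix proteases and their inhibitors 23 of 39 rose and 9 fell, with a median of 0.67. Adamts16 had 0 counts in untreated lungs and 10.8, 5.05 and 9.62 CPM in silica libraries, at least 28.4-fold higher. The membrane collagenase gene Mmp14 went from 2429, 2491 and 2536 to 7914, 6096 and 6128 CPM (log2 1.43 ± 0.09, adjusted p = 8.73e-16). The metalloprotease inhibitor gene Timp1 was at 12.7, 13.1 and 16.9 CPM in untreated and 141, 160.5 and 164 CPM in silica libraries (log2 3.48 ± 0.16), and its relative Timp2 was not called (log2 -0.19 ± 0.08), though it was called lower by DESeq2, by limma-voom, under both other scalings, among genes of at least 10 CPM and without untreated replicate 1. The serine protease inhibitor gene Serpine2 rose by log2 1.77 ± 0.12. Adamts8 (log2 -1.74 ± 0.19) and Adamts10 (log2 -1.68 ± 0.13) fell. In all of the genes given here by library, silica and untreated libraries did not overlap.

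Signalling genes were divided by pathway role. Of TGF-β and activin genes 12 of 28 rose and 3 fell, or 5 lower without untreated replicate 1. Among ligands, the activin A subunit gene Inhba was at 0, 0.251 and 0.468 CPM in untreated and 13.3, 13.0 and 15.4 CPM in silica libraries, a ratio of 69.5-fold (95% counting interval 18.9 to 579). The TGF-β ligand gene Tgfb1 rose by log2 2.37 ± 0.24. The activin-binding antagonist follistatin Fst rose from 2.88 ± 0.357 to 62.6 ± 8.29 CPM (log2 4.46 ± 0.29), and the follistatin-like gene Fstl1 from 3491 ± 32.7 to 9139 ± 924 CPM (log2 1.39 ± 0.09). Ltbp4, which holds latent TGF-β in elastic matrix, went from 1163, 1118 and 936 to 209, 189.7 and 132 CPM (log2 -2.60 ± 0.25, adjusted p = 6.49e-07). The silica range for Ltbp4 lay wholly under the untreated one. Pmepa1, a target that feeds back on TGF-β receptors, was not called at log2 0.12 ± 0.12.

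BMP genes were split, with 8 of 24 higher and 11 lower and a median of -0.32. The BMP antagonist Grem1 was at 0 in untreated lungs and at 74.7, 61.4 and 51.6 CPM in silica libraries, at least 208-fold higher. The type II receptor gene Bmpr2 went from 252, 246 and 277 to 756, 705 and 745 CPM (log2 1.51 ± 0.09, adjusted p = 2.08e-16). The ligand gene Bmp4 (log2 -1.61 ± 0.20) and the antagonist Chrdl1 (log2 -2.27 ± 0.25) fell.

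Wnt genes were more often lower than higher, with 7 of 32 higher and 12 lower and a median of -0.51. Summed over all deposited members, though, the level was 694 to 793 CPM in untreated and 1653 to 1900 CPM in silica libraries. The gain of Sfrp1 alone, given below, was about as large as that of the sum. The ligand gene Wnt2, made by alveolar fibroblasts, went from 30.0, 27.6 and 17.3 to 4.77, 4.78 and 2.03 CPM (log2 -2.72 ± 0.26, adjusted p = 3.61e-11). Secreted modulators were among those that rose. Rspo3, which amplifies Wnt signals, went from 6.48, 6.28 and 7.96 to 85.0, 128 and 161 CPM (log2 4.20 ± 0.31), and the antagonist Sfrp1 from 98.7, 107 and 81.5 to 1008, 1270.2 and 1196 CPM (log2 3.59 ± 0.23). Wisp1, a matricellular protein, rose by log2 3.13 ± 0.38. For Wnt2, Rspo3 and Sfrp1 alike, silica and untreated libraries stood apart. In the Notch list 2 of 12 rose and 4 fell. Receptor Notch3 (log2 3.35 ± 0.42) and ligand Jag1 (log2 1.76 ± 0.27) rose and the target Hey2 fell (log2 -1.24 ± 0.28). Notch3 is also on the pericyte and smooth muscle marker list, and the part of such cells in its rise was not tested. Of Hedgehog genes 1 of 11 rose and 3 fell (2 higher when only the 2 groups were fitted), and the coreceptor gene Boc was lower (log2 -1.51 ± 0.19).

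Growth factor genes were nearly balanced, as 13 of 33 rose and 11 fell. Ereg, an EGF receptor ligand, went from 0, 0.502 and 1.40 to 41.6, 53.1 and 51.1 CPM (log2 6.50 ± 0.42, adjusted p = 8.05e-14). The ErbB ligand gene Nrg1 (log2 4.11 ± 0.32) and the VEGF family member Pgf (log2 3.75 ± 0.37) rose, and another of that family, Figf, which encodes VEGF-D, fell from 1198 ± 96.1 to 530.2 ± 54.7 CPM (log2 -1.18 ± 0.11). Of growth factor receptors 6 of 23 rose and 9 fell. The PDGF receptor genes went opposite ways. Pdgfrb went from 12.4, 15.1 and 21.5 to 83.5, 66.4 and 77.7 CPM (log2 2.27 ± 0.19, adjusted p = 1.85e-11) and Pdgfra from 129, 139.7 and 136 to 93.3, 83.7 and 88.1 CPM (log2 -0.61 ± 0.11, adjusted p = 1.09e-05). Neither had overlapping groups. Pdgfrb is also on the pericyte list, of whose 8 tested members 4 rose and 1 fell. The receptor tyrosine kinase gene Ror1 rose (log2 1.82 ± 0.18), and Fgfr3 (log2 -2.22 ± 0.21) and Mertk (log2 -2.52 ± 0.45), a receptor for dying cells, fell. Among IGF-binding proteins and their regulators 6 of 11 rose and 2 fell, with 1 lower without untreated replicate 1 or SiO2 day 7 replicate 3. Their sum over all deposited members was lower with silica, at 8148 to 9267 CPM in untreated and 3689 to 4515 CPM in silica libraries. Igfbp6 went from 6161, 7213 and 6135 to 1156, 929 and 767 CPM (log2 -2.77 ± 0.21, adjusted p = 1.92e-08), while Igfbp4 rose by log2 1.49 ± 0.11 and its protease gene Pappa by log2 1.53 ± 0.23.

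Receptors for vasoactive and lipid mediators had 9 of 30 higher and 11 lower. Both bradykinin receptor genes rose, Bdkrb2 from 0.636 ± 0.712 to 15.8 ± 3.73 CPM (log2 4.88 ± 0.44) and Bdkrb1 by log2 1.92 ± 0.18. The angiotensin receptor gene Agtr1b (log2 -2.45 ± 0.25), the α1 adrenergic receptor gene Adra1a (log2 -2.54 ± 0.26) and the prostaglandin F receptor gene Ptgfr (log2 -2.11 ± 0.22) fell. In prostaglandin synthesis 4 of 8 rose and 2 fell, and 1 fell without untreated replicate 2. The sum over all deposited members of this list was 3494 to 4089 CPM in untreated and 1509 to 1806 CPM in silica libraries. The cyclooxygenase genes Ptgs1 (log2 1.43 ± 0.16) and Ptgs2 (log2 1.61 ± 0.17) rose, and prostacyclin synthase Ptgis went from 3722, 3477 and 3173 to 1193, 932 and 975 CPM (log2 -1.74 ± 0.10, adjusted p = 2.85e-17).

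Acute-phase and innate effector genes were among the lists with the largest medians, with 9 of 12 higher and 0 lower and a median of 1.80. Haptoglobin Hp, which binds free haemoglobin, went from 11.7, 11.1 and 12.2 to 802, 987 and 867 CPM (log2 6.26 ± 0.24, adjusted p = 8.53e-14). Lcn2, an iron-siderophore binder, went from 8.29, 11.8 and 7.02 to 155, 138 and 108 CPM (log2 3.83 ± 0.34), and the antiprotease Slpi rose by log2 2.10 ± 0.33. The 3 silica libraries of Hp were far above the untreated ones. Saa2 rose (log2 3.74 ± 0.57), though near-identical serum amyloid genes make its count uncertain, and the receptor gene Tlr4 was not called (log2 0.27 ± 0.19). Chemokine genes had 15 of 21 higher and 4 lower, a median of 1.79. Cxcl5, which draws neutrophils, went from 4.40, 4.02 and 2.34 to 72.5, 70.7 and 58.2 CPM (log2 4.14 ± 0.23, adjusted p = 1.29e-17). Ccl2, which draws monocytes, rose by log2 1.85 ± 0.20 and the B cell attractant Cxcl13 by log2 2.73 ± 0.31, and the scavenging receptor gene Ackr3 fell (log2 -1.55 ± 0.29).

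Of cytokine and receptor genes 12 of 27 rose and 7 fell. The granulocyte growth factor gene Csf3 went from 0.518, 1.00 and 1.40 to 14.5, 32.4 and 16.2 CPM (log2 4.48 ± 0.60, adjusted p = 3.94e-06). The IL-13 receptor gene Il13ra1 rose by log2 2.26 ± 0.11 and the alarmin Il33 by log2 1.72 ± 0.27. The receptor genes Il6ra (log2 -1.99 ± 0.18) and Il11ra1 (log2 -1.61 ± 0.15) fell, and Csf1 was not called (log2 -0.14 ± 0.12). Csf3 was low in all untreated libraries and its silica range lay above them. In the TNF superfamily 5 of 17 rose and 4 fell (3 higher among genes of at least 10 CPM). The RANKL decoy gene Tnfrsf11b rose (log2 4.04 ± 0.55), as did RANKL itself, and Cd40 fell (log2 -2.10 ± 0.26).

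Interferon response genes had 16 of 33 higher and 3 lower, with a median of 0.83. Oas1a, an antiviral oligoadenylate synthase gene, was at 0.777, 0 and 0 CPM in untreated and 3.51, 2.92 and 6.58 CPM in silica libraries, a ratio of 14.5-fold (95% counting interval 4.69 to 72.6). The nucleic acid sensor genes Zbp1 (log2 1.88 ± 0.27) and Ddx58 (log2 0.90 ± 0.17) rose, as did Ifi44 (log2 2.41 ± 0.43). Stat2 was not called (log2 -0.09 ± 0.20) and Ifi27 was lower (log2 -1.11 ± 0.21). The RefSeq promoter of Oas1a (GRCm38.p6, chr5:120907476-120907775 on the minus strand) is shown because it holds 2 overlapping copies of the interferon-stimulated response element, in capitals and read on the other strand.
Oas1a: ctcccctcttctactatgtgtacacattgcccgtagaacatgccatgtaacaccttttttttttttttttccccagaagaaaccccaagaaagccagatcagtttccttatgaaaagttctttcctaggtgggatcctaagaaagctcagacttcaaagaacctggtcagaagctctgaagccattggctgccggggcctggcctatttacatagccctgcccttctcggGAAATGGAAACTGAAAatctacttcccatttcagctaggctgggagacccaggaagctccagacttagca
Of 25 tested members with a promoter in the RefSeq table, 15 (60.0%) held this element on either strand, among them 8 of the 11 that rose, against 3.85% of the promoters of all 8398 tested genes with one. A match of letters is a description and shows no binding.

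For MHC and antigen processing 8 of 21 rose and 5 fell. The count of higher members was 4 without untreated replicate 2 or SiO2 day 7 replicate 3, and 5 without untreated replicate 3 or SiO2 day 7 replicate 2. The class I gene H2-T22 (log2 1.55 ± 0.19) and the immunoproteasome gene Psmb8 (log2 0.62 ± 0.11) rose. The class II gene H2-Eb1 went from 59.1, 106 and 89.4 to 24.3, 22.3 and 14.4 CPM (log2 -2.06 ± 0.36, adjusted p = 0.000286), and close relatives in the family make both MHC counts uncertain. Of complement genes 5 of 17 rose and 2 fell (4 lower under upper quartile scaling). The alternative pathway gene Cfb rose by log2 1.65 ± 0.16 and the terminal component gene C6 by log2 1.28 ± 0.16, while C7 (log2 -1.29 ± 0.15) fell.

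Dividing cells turn on genes of DNA replication and then of mitosis, and both lists rose nearly whole. Of replication genes 25 of 29 rose and 0 fell (median 1.40), and of mitosis and spindle genes 36 of 38 rose and 0 fell (median 3.80, or 3.74 with the member at 0 counts set to its bound). Many of these genes are low, and among genes of at least 10 CPM the higher counts were 12 and 20. The condensin gene Ncapg, which compacts chromosomes, went from 0.518, 1.76 and 0.936 to 27.1, 31.1 and 39.7 CPM (log2 4.85 ± 0.33, adjusted p = 4.80e-15). The replicative helicase factor gene Gins2 went from 4.14, 4.77 and 5.15 to 73.2, 79.7 and 95.2 CPM (log2 4.15 ± 0.28, adjusted p = 2.48e-12). The flap endonuclease gene Fen1 rose from 12.7 ± 1.48 to 46.2 ± 4.63 CPM (log2 1.87 ± 0.19), the origin licensing gene Cdc6 from 2.47 ± 0.735 to 20.2 ± 2.70 CPM and the survivin gene Birc5 by log2 4.40 ± 0.56. Mcm4, a helicase subunit, was not called (log2 0.54 ± 0.34). No library of one group reached the range of the other for Ncapg or Gins2.

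The promoters of Ncapg (RefSeq, GRCm38.p6, chr5:45669675-45669974 on the plus strand) and Fen1 (chr19:10203872-10204171 on the minus strand, 1 of 2 for the gene) are shown because each holds the element searched in its list, in capitals.
Ncapg: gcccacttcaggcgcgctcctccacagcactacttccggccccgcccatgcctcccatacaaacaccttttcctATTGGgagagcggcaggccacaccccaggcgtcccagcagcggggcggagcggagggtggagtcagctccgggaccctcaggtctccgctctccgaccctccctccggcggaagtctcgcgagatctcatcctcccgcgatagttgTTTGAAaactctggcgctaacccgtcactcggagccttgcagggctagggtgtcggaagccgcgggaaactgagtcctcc
Fen1: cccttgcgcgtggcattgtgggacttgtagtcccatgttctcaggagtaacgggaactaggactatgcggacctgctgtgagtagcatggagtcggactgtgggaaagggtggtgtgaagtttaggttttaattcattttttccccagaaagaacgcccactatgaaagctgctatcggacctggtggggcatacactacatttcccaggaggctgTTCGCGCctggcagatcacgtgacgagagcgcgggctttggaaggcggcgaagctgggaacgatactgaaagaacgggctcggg
In Ncapg the capitals mark the CCAAT box, CCAAT or ATTGG, and the cell cycle genes homology region, TTTGAA or TTCAAA. In Fen1 they mark an E2F element, GCGCGAA read on the other strand. Of 32 mitosis genes with a promoter in the table, 24 (75.0%) held TTTGAA on either strand and 26 (81.2%) held CCAAT, against 14.1% and 42.3% of all 8398 promoters. Of 25 replication genes 16 (64.0%) held GCGGGAA or GCGCGAA, against 12.7%.

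Cyclin D, CDK inhibitor and p53 target genes had 9 of 27 higher and 4 lower. Cdk6, a kinase of the G1 phase, rose by log2 1.09 ± 0.12, and the CDK inhibitor gene Cdkn1c went from 102, 91.9 and 105 to 36.9, 38.8 and 26.3 CPM (log2 -1.55 ± 0.17, adjusted p = 3.78e-09). The p53 target genes Sesn1 (log2 -1.29 ± 0.21) and Btg2 (log2 -0.70 ± 0.11) also fell.

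In the list of glycolysis and hypoxia genes 15 of 26 were higher with silica and 2 lower, with a median of 1.13. The lower count was 4 without untreated replicate 3 and 1 without SiO2 day 7 replicate 1 or 2. Hif1a, the oxygen-sensitive transcription factor gene, went from 49.7, 58.8 and 63.7 to 327, 365 and 419 CPM (log2 2.70 ± 0.16, adjusted p = 1.17e-12). The lactate and pyruvate carrier gene Slc16a1 went from 35.7, 38.9 and 41.7 to 298, 346 and 387 CPM (log2 3.16 ± 0.16), and another lactate carrier gene, Slc16a3, from 6.55 ± 0.947 to 156 ± 13.4 CPM (log2 4.53 ± 0.19). All silica libraries exceeded all untreated ones for these 3 genes. Other hypoxia members were Egln3 (log2 1.07), Bnip3 (log2 0.74), Pdk1 (log2 0.40) and Adm (log2 -0.40). The enzyme genes Hk1 and Pfkp were both at log2 -0.67. These values are given whether called or not and without alternatives, and a hypoxia response was not tested. The enzyme genes Pgk1 (log2 2.17 ± 0.27), Eno1 (log2 2.50 ± 0.32) and Ldha (log2 1.63 ± 0.14) rose, Aldoa was not called (log2 -0.13 ± 0.10) unless untreated replicate 3 was left out, and Pfkfb3, which sets the rate of glycolysis through fructose bisphosphate, was lower (log2 -0.74 ± 0.20). The promoter of Slc16a3 (RefSeq, GRCm38.p6, chr11:120948817-120949116 on the plus strand) is shown because it holds the core of the hypoxia element, ACGTG, at 2 places, in capitals.
Slc16a3: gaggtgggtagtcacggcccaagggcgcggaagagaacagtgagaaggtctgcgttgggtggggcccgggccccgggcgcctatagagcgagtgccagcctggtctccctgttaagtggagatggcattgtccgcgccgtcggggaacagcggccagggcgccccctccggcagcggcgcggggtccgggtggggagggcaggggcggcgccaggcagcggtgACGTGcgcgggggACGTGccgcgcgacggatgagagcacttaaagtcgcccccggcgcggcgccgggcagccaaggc
Of 25 tested members with a promoter in the table, 16 (64.0%) held ACGTG on either strand, 11 of them among the 14 that rose, against 29.5% of all promoters.

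**Figure D3:**
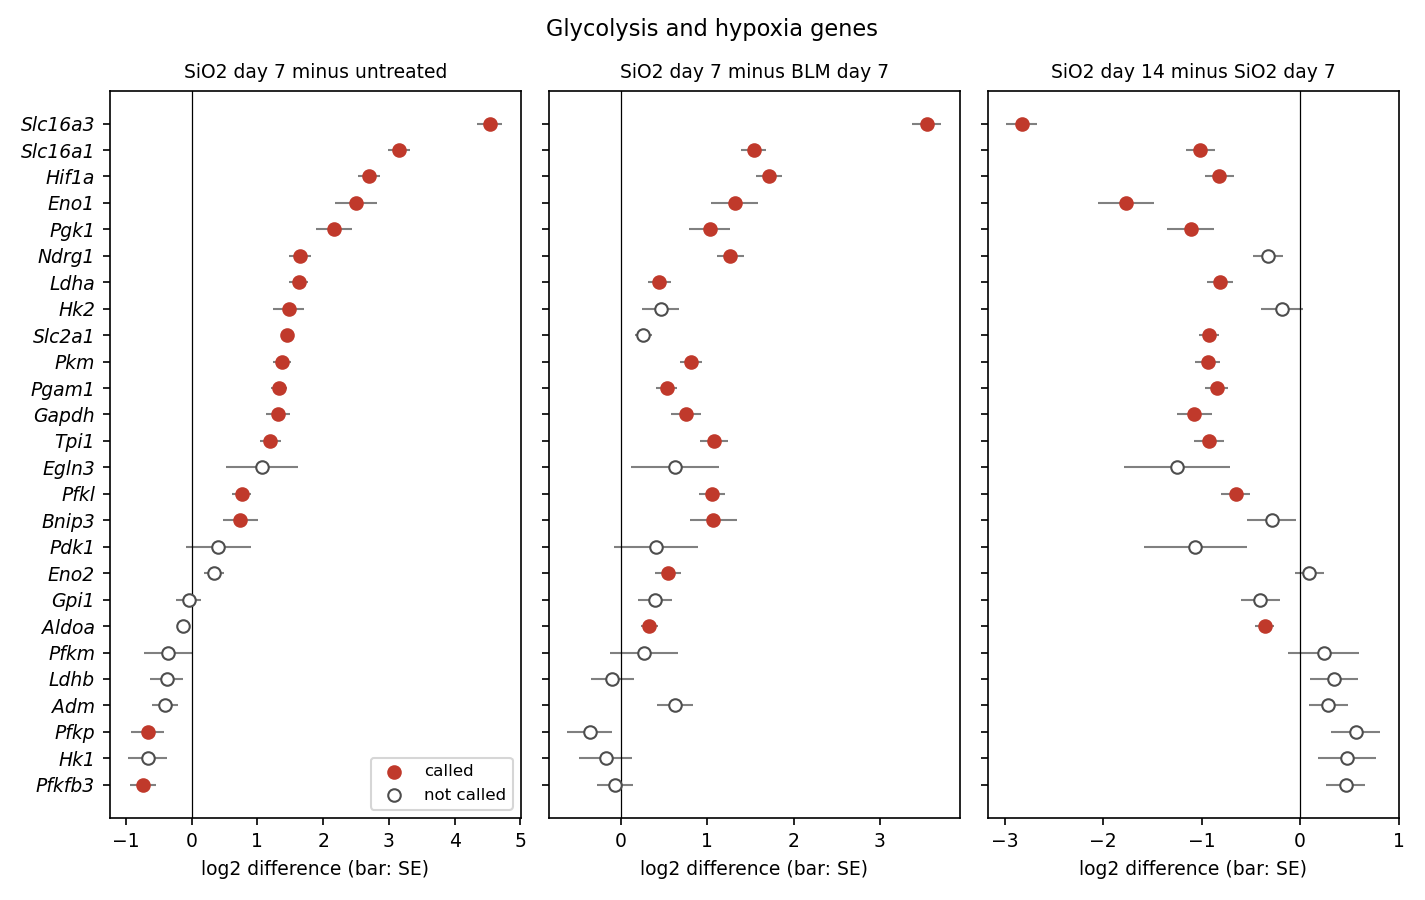
Points are log2 differences for the 26 tested glycolysis and hypoxia genes, with bars of 1 SE, for silica day 7 minus untreated (left), silica day 7 minus BLM day 7 (middle) and silica day 14 minus silica day 7 (right), filled where called. Called genes lie mostly right of 0 in the first 2 panels (15 and 15 of 26) and left of 0 in the last (13 of 26).

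Other metabolic lists moved less or in part. Amino acid synthesis, transport and ATF4 target genes had 12 of 26 higher and 6 lower, with a median of 0.85. Ddit4, a stress-induced inhibitor of mTOR, went from 4.14, 3.27 and 2.34 to 93.8, 95.1 and 137 CPM (log2 4.99 ± 0.34, adjusted p = 1.38e-10). The mitochondrial folate gene Mthfd2 had a ratio of 46.0-fold (95% counting interval 7.92 to 1852), and the proline synthesis gene Aldh18a1 rose by log2 1.66 ± 0.20. The transporter gene Slc1a4 fell (log2 -1.66 ± 0.18). The silica libraries of Ddit4 differed among themselves but all lay above the untreated ones. The ATF4 element TGATGNAAT was in 2 of 23 promoters of this list, neither of a member that rose, and in 0.572% of all promoters. Oxidative phosphorylation genes had 15 of 51 higher and 2 lower, among them the higher Cox5a (log2 1.07 ± 0.16) and Atp5b (log2 0.58 ± 0.11). The lower count there was 1 without SiO2 day 7 replicate 2 and 4 under upper quartile scaling. In cholesterol synthesis 9 of 23 rose and 3 fell, with the demethylase gene Cyp51 higher (log2 1.29 ± 0.18). In fatty acid synthesis 5 of 12 rose and 1 fell (3 higher without SiO2 day 7 replicate 1), including the elongase gene Elovl6 (log2 2.01 ± 0.25). Of sterol export and LXR target genes 6 of 13 rose and 2 fell. The cholesterol exporter gene Abca1 rose from 36.1 ± 8.63 to 99.6 ± 7.13 CPM, and the receptor gene Nr1h3 (log2 -0.81 ± 0.12) and Apoe (log2 -0.92 ± 0.18) fell.

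The machinery that folds and exports secreted proteins rose broadly. Of endoplasmic reticulum folding and secretory traffic genes 35 of 48 rose and 2 fell, with a median of 0.60, and the lower count was 1 without untreated replicate 1, untreated replicate 2 or SiO2 day 7 replicate 3. The disulfide isomerase gene Pdia5 went from 24.6, 22.9 and 20.1 to 106, 132 and 148 CPM (log2 2.50 ± 0.16, adjusted p = 2.00e-15). The translocon gene Sec61a1 rose by log2 1.25 ± 0.13, its partner Ssr3 by log2 1.07 ± 0.11 and the membrane anchor gene Ckap4 by log2 1.65 ± 0.15, while the stress sensor gene Atf6 fell (log2 -0.90 ± 0.10). Of proteasome subunit genes 17 of 31 rose and 0 fell, or 11 higher without SiO2 day 7 replicate 3, with Psmb5 at log2 1.06 ± 0.20. Of ribosome biogenesis genes 10 of 30 rose and 0 fell, or 6 higher without untreated replicate 3 or SiO2 day 7 replicate 2. Also, 1 was called lower without SiO2 day 7 replicate 2, and 2 were lower at an unadjusted p under 0.05 or under upper quartile scaling. The nucleolar chaperone gene Npm1 rose by log2 0.99 ± 0.18. Cytosolic chaperones had 6 of 20 higher and 6 lower, and Hspa8 rose (log2 1.13 ± 0.11) and the small heat shock gene Cryab went from 1846 ± 96.7 to 760.3 ± 47.2 CPM (log2 -1.28 ± 0.09).

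In the lysosome list 10 of 32 rose and 5 fell, with the tetraspanin Cd63 (log2 1.22 ± 0.10) and cathepsin Ctsb (log2 0.74 ± 0.09) higher and the lysosomal regulator gene Tfeb lower (log2 -2.00 ± 0.50). Antioxidant and detoxification genes had 10 of 39 higher and 13 lower. Among superoxide dismutase genes, Sod2 and Sod3 went opposite ways. Mitochondrial Sod2 went from 1087, 1368 and 1106 to 3919, 4216 and 4682 CPM (log2 1.85 ± 0.14, adjusted p = 4.55e-10) and extracellular Sod3 from 738, 729 and 607 to 331, 315 and 239 CPM (log2 -1.23 ± 0.13, adjusted p = 9.05e-09). In neither did the groups overlap. The cytochrome P450 gene Cyp1b1 rose (log2 3.37 ± 0.27), and the flavin monooxygenase gene Fmo2 fell (log2 -1.41 ± 0.12).

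Smooth muscle contractile genes had 8 of 17 higher and 1 lower, with a median of 0.82, and 2 were lower under upper quartile scaling. The γ smooth muscle actin gene Actg2 rose from 17.4 ± 3.35 to 279 ± 78.4 CPM (log2 3.97 ± 0.37, adjusted p = 4.36e-07). Tropomyosins Tpm2 (log2 2.28 ± 0.17) and Tpm1 (log2 1.90 ± 0.17) and the thin filament gene Cald1 (log2 0.99 ± 0.11) rose. Tagln, which encodes transgelin, was not called (log2 0.58 ± 0.31) unless SiO2 day 7 replicate 2 was left out, and the myosin kinase gene Mylk was lower (log2 -0.39 ± 0.09). Calponin Cnn1, also a smooth muscle marker, was not tested, with 0 counts in the untreated and 2 to 5 in the silica libraries. The summed pericyte and smooth muscle markers were higher with silica, as given above, and their part in these results was not tested. The regulatory light chain gene Myl9 rose from 13.3 ± 1.55 to 33.4 ± 15.1 CPM (log2 1.35 ± 0.28). Its promoter (RefSeq, GRCm38.p6, chr2:156775214-156775513 on the plus strand) is shown because it alone among 6 rising members with a promoter in the table held a CArG box, the site read by serum response factor, in capitals.
Myl9: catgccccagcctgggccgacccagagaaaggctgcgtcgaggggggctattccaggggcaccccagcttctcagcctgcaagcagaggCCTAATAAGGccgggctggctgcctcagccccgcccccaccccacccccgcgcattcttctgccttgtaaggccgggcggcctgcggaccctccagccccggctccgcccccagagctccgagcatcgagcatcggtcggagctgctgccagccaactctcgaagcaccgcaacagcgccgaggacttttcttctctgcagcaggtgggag
Of 12 tested members with a promoter, 3 (25.0%) held a CArG box, against 1.58% of all promoters.

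Nonmuscle cytoskeleton and focal adhesion genes had 20 of 42 higher and 7 lower. The crosslinker gene Actn4 (log2 1.68 ± 0.13), profilin Pfn1 (log2 1.45 ± 0.12) rose, as did tubulin Tubb5, from 42.2 ± 6.37 to 118 ± 8.93 CPM. Zyxin Zyx, a focal adhesion protein that senses tension, went from 5663, 4821 and 4201 to 1683, 1593 and 1703 CPM (log2 -1.56 ± 0.10, adjusted p = 2.32e-15), and vimentin Vim was not called (log2 0.08 ± 0.10). The silica libraries of Zyx were all under the untreated ones.

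Most genes that mark resident fibroblasts fell. Of alveolar fibroblast genes 1 of 27 rose and 21 fell, with a median of -1.18. The transcription factor gene Tcf21, which sets this identity, went from 189.9, 151 and 159.7 to 71.0, 53.7 and 53.7 CPM (log2 -1.49 ± 0.14, adjusted p = 9.74e-11). The serine transporter gene Slc7a10 fell (log2 -3.66 ± 0.61) and so did the cytoskeletal linker gene Macf1 (log2 -1.54 ± 0.10). Slit2, a guidance factor, was the single member that rose (log2 0.47 ± 0.12), and the matrix gene Spon1 was not called (log2 0.15 ± 0.09). Of lipid storage genes 2 of 15 rose and 4 fell, with a median of 0.27 beside 0.04 over all tested genes. The lipolysis inhibitor gene G0s2 went from 4684, 4431 and 3540.0 to 719, 617 and 438 CPM (log2 -2.83 ± 0.28, adjusted p = 7.14e-07), and hormone-sensitive lipase Lipe fell (log2 -2.35 ± 0.19). Lipoprotein lipase Lpl, which takes up fatty acids, went up from 66.1, 86.2 and 94.6 to 386, 383 and 345 CPM (log2 2.18 ± 0.26). Silica and untreated libraries stood apart for Tcf21, G0s2 and Lpl.

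Adventitial fibroblast genes had 4 of 25 higher and 16 lower, with a median of -0.85. Clec3b, which encodes tetranectin, fell from 46.7 ± 2.73 to 7.99 ± 2.28 CPM (log2 -2.55 ± 0.20), beside Igfbp6 and Pcolce2 given above. Retinoid genes had 2 of 14 higher and 8 lower, among them the storage enzyme gene Lrat, from 202, 407 and 195 to 31.4, 37.2 and 32.7 CPM (log2 -3.00 ± 0.43, adjusted p = 3.89e-05). The retinoic acid synthesis gene Aldh1a1 fell (log2 -2.28 ± 0.16) and Cyp26b1, which degrades retinoic acid, rose (log2 2.93 ± 0.69). The mesothelial marker Upk1b (log2 -2.15 ± 0.12) fell beside these lists, and its part in them was not tested.

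Hox genes, which keep the positional identity of mesenchyme, had 1 of 11 higher and 8 lower, with a median of -1.22. Hoxa5, needed for lung development, went from 96.9, 84.4 and 91.8 to 28.8, 24.4 and 23.5 CPM (log2 -1.83 ± 0.15, adjusted p = 1.19e-12), Hoxb5 fell (log2 -1.31 ± 0.13), and Hoxb7 rose by log2 0.65 ± 0.19. Of other mesenchymal transcription factors 15 of 44 rose and 15 fell. The osteogenic regulator gene Runx2 went from 4.14, 6.03 and 5.15 to 74.7, 81.6 and 82.8 CPM (log2 3.95 ± 0.23, adjusted p = 1.33e-16), and Runx1 rose by log2 2.71 ± 0.18. The lung mesenchyme factors Tbx2 (log2 -1.29 ± 0.10) and Osr1 (log2 -1.34 ± 0.11) fell, and Zeb2 was not called (log2 0.13 ± 0.09). The runt genes and Hoxa5 had no overlapping libraries.

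Immediate-early genes, which respond within minutes to growth factors and to tissue dissociation, had 1 of 23 higher and 16 lower, with a median of -0.74. Gadd45b fell from 1050.3 ± 139.6 to 317 ± 51.7 CPM (log2 -1.73 ± 0.16), as did Ier2 (log2 -0.84 ± 0.12) and Junb (log2 -0.89 ± 0.11). Klf6 was the member that rose (log2 0.39 ± 0.09), and 2 rose without untreated replicate 2 or SiO2 day 7 replicate 2, with limma-voom, or with no filter. Of glucocorticoid-induced genes 1 of 12 rose and 7 fell. Fkbp5 rose from 8.87 ± 1.40 to 70.3 ± 18.5 CPM (log2 2.95 ± 0.32), while Zbtb16 fell from 114 ± 44.6 to 15.5 ± 4.46 CPM (log2 -2.85 ± 0.59). Circadian genes had 2 of 15 higher and 8 lower (1 higher without untreated replicate 1 or SiO2 day 7 replicate 2). The clock gene Per1 (log2 -1.35 ± 0.18) and the clock output gene Hlf (log2 -2.07 ± 0.20) fell. Bhlhe40 rose (log2 1.47 ± 0.13), and the labels gave no hour of collection.

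Cell surface genes changed in both directions. Of adhesion molecules 13 of 30 rose and 12 fell. The neural adhesion gene Chl1 was at 0, 0 and 0.468 CPM in untreated and 34.9, 49.7 and 44.6 CPM in silica libraries, a ratio of 428-fold (95% counting interval 76.5 to 16940.0). Syndecan Sdc1, a heparan sulfate carrier, went from 1.55, 0.251 and 2.34 to 40.4, 40.9 and 55.7 CPM (log2 5.20 ± 0.35, adjusted p = 6.22e-14), and the surface glycoprotein Thy1 from 2.59, 3.52 and 0 to 47.4, 32.1 and 34.2 CPM (log2 3.98 ± 0.33). No untreated library reached a silica one for Sdc1 and Thy1. The hyaluronan receptor Cd44 rose by log2 1.43 ± 0.12 and the cadherin Cdh4 fell (log2 -2.19 ± 0.61). Among axon guidance genes 8 of 35 rose and 9 fell (4 higher among genes of at least 10 CPM). Sema7a, a semaphorin that binds integrins, had a ratio of 48.6-fold (95% counting interval 8.38 to 1953), the netrin receptor gene Unc5b rose (log2 2.68 ± 0.37), and netrin Ntn1 fell (log2 -1.99 ± 0.24). Of ion channel genes 6 of 25 rose and 9 fell. The mechanosensitive channel gene Piezo2 went from 4.66, 6.78 and 7.49 to 103, 88.7 and 83.5 CPM (log2 3.90 ± 0.38, adjusted p = 5.78e-07), while its paralogue Piezo1 was not called (log2 0.01 ± 0.10). Sodium channel Scn3a went from 382, 309 and 285 to 53.9, 50.7 and 34.4 CPM (log2 -2.81 ± 0.25, adjusted p = 1.74e-07), and calcium channel Cacna1d fell (log2 -1.74 ± 0.13).

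The direct test of silica day 7 against BLM day 7 asks where the start of the progressive model differs from that of the reversible one on the same day. Doses of the 2 agents differ and no dose was matched, so a difference between the agents and one between doses cannot be told apart. Silica was higher for 614 tested genes (5.26%) and lower for 611 (5.24%), and at least 2-fold for 249 (2.13%) and 195 (1.67%). Libraries of the 2 agents did not overlap for 25.7% of tested genes. The median difference of all tested genes was 0.01. Between BLM day 7 and untreated libraries 3677 genes differed (31.5%), a comparison that shares the untreated libraries with the silica one.

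Fibrillar collagen genes were higher with silica than with BLM, as 8 of 10 were higher and 0 lower and the median difference was 0.85 on the log2 scale. Col11a1 was at 0.871, 2.38 and 2.85 CPM in BLM libraries, under all silica libraries (log2 5.10 ± 0.89, adjusted p = 0.00152). Of collagen processing genes 11 of 29 were higher and 3 lower, a higher count of 5 to 7 without SiO2 day 7 replicate 1 or 3 or BLM day 7 replicate 1 or 3. They included Bmp1 (log2 1.81 ± 0.18), P4ha3 (log2 1.28 ± 0.19) and Loxl2 (log2 1.15 ± 0.12) on the higher side. The BMP antagonist Grem1 was at 0.871, 3.96 and 3.80 CPM in BLM libraries, again under each silica library (log2 4.42 ± 0.36, adjusted p = 3.52e-08). Rspo3 (log2 2.96 ± 0.27) and Nrg1 (log2 2.50 ± 0.26) were higher with silica and Wnt2 was lower, with BLM libraries at 16.8, 13.7 and 15.8 CPM (log2 -1.99 ± 0.28, adjusted p = 1.44e-06).

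Of glycolysis and hypoxia genes 15 of 26 were higher and 0 lower with silica, with a median of 0.59. Hif1a was at 88.2, 129.7 and 119.8 CPM in BLM libraries (log2 1.72 ± 0.15, adjusted p = 1.74e-08), and Slc16a3 at 15.4, 13.5 and 11.1 CPM (log2 3.54 ± 0.17, adjusted p = 5.13e-19). Both ranges lay under that of silica. Of acute-phase genes 7 of 12 were higher and 0 lower, and of chemokine genes 7 of 21 were higher and 2 lower (3 higher without BLM day 7 replicate 3). Hp was at 109, 123 and 89.7 CPM with BLM (log2 3.05 ± 0.19, adjusted p = 1.99e-09) and Cxcl5 at 4.64, 3.70 and 2.54 CPM (log2 4.19 ± 0.23, adjusted p = 2.85e-17), near its untreated range. Sod2 (log2 1.26 ± 0.14), Ddit4 (log2 2.35 ± 0.25) and the costimulatory receptor gene Tnfrsf9 (log2 5.95 ± 0.60) were also higher with silica, and so were Adamdec1 (log2 5.52 ± 0.45) and Nt5e, which makes adenosine (log2 4.70 ± 0.50).

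The proliferation lists had no call between the agents by edgeR, DESeq2 or limma-voom. Of 29 replication genes 0 were higher and 0 lower, also at an unadjusted p under 0.05. Of 38 mitosis genes 0 were higher and 0 lower, and 1 was higher at an unadjusted p under 0.05. Ncapg was at 32.5 ± 2.37 CPM with BLM and 32.6 ± 6.47 CPM with silica (log2 0.00 ± 0.20), and Gins2 at 64.1 ± 10.6 and 82.7 ± 11.3 CPM (log2 0.37 ± 0.19). A difference that misses the threshold does not show equal levels. Of 31 proteasome genes 0 were called, and 3 were higher with silica at an unadjusted p under 0.05.

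Genes of resident fibroblasts were more often lower with silica than with BLM. Of alveolar fibroblast genes 3 of 27 were higher and 13 lower (median -0.60), and the higher count was 1 without SiO2 day 7 replicate 1 or 2 or BLM day 7 replicate 2 or 3. Of adventitial genes 1 of 25 were higher and 10 lower (median -0.76), with 0 higher without SiO2 day 7 replicate 2. Col13a1 was at 1180.4, 1006 and 1129 CPM with BLM (log2 -1.56 ± 0.15, adjusted p = 3.14e-07) and Igfbp6 at 3047, 2227 and 2159 CPM (log2 -1.38 ± 0.20, adjusted p = 0.000221). In both genes BLM libraries sat between the silica and untreated ranges. Immediate-early genes were lower for 8 of 23, and for 4 or 5 without SiO2 day 7 replicate 2 or 3 or BLM day 7 replicate 1 or 3. Of cyclin, CDK inhibitor and p53 target genes 8 of 27 were lower, and 4 or 5 without SiO2 day 7 replicate 2 or 3 or BLM day 7 replicate 2 or 3. The CDK inhibitor gene Cdkn1a, at 950.4 ± 277 CPM in untreated, 759 ± 142 CPM in silica and 1678 ± 198 CPM in BLM libraries, was lower with silica than with BLM (log2 -1.14 ± 0.17). Against untreated lungs it was not called (log2 -0.32 ± 0.17), though it was called lower with no filter, with the replicate block, without untreated replicate 1 and without SiO2 day 7 replicate 3. The class II gene H2-Eb1 was at 61.2, 71.3 and 131 CPM with BLM (log2 -2.10 ± 0.36, adjusted p = 0.00128). Of 9 mesothelial markers 7 were lower with silica than with BLM (4 without SiO2 day 7 replicate 2 or 3 or BLM day 7 replicate 1). Their sum was 463 to 696 CPM in BLM libraries, and the part of this in the other results was not tested.

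In the mm10 build, with GENCODE vM21, the genes plotted by library span chromosome 2 113746164 to 113758646 (Grem1), chromosome 14 68563380 to 68582095 (Adamdec1), chromosome 5 90759360 to 90761624 (Cxcl5), chromosome 11 120948480 to 120960868 (Slc16a3) and chromosome 6 55170626 to 55175043 (Inmt). Igfbp6 spans chromosome 15 102144362 to 102149511, Wnt2 chromosome 6 17988940 to 18030585 and Serpini1 chromosome 3 75557547 to 75643495, and all are protein-coding.

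**Figure D4:**
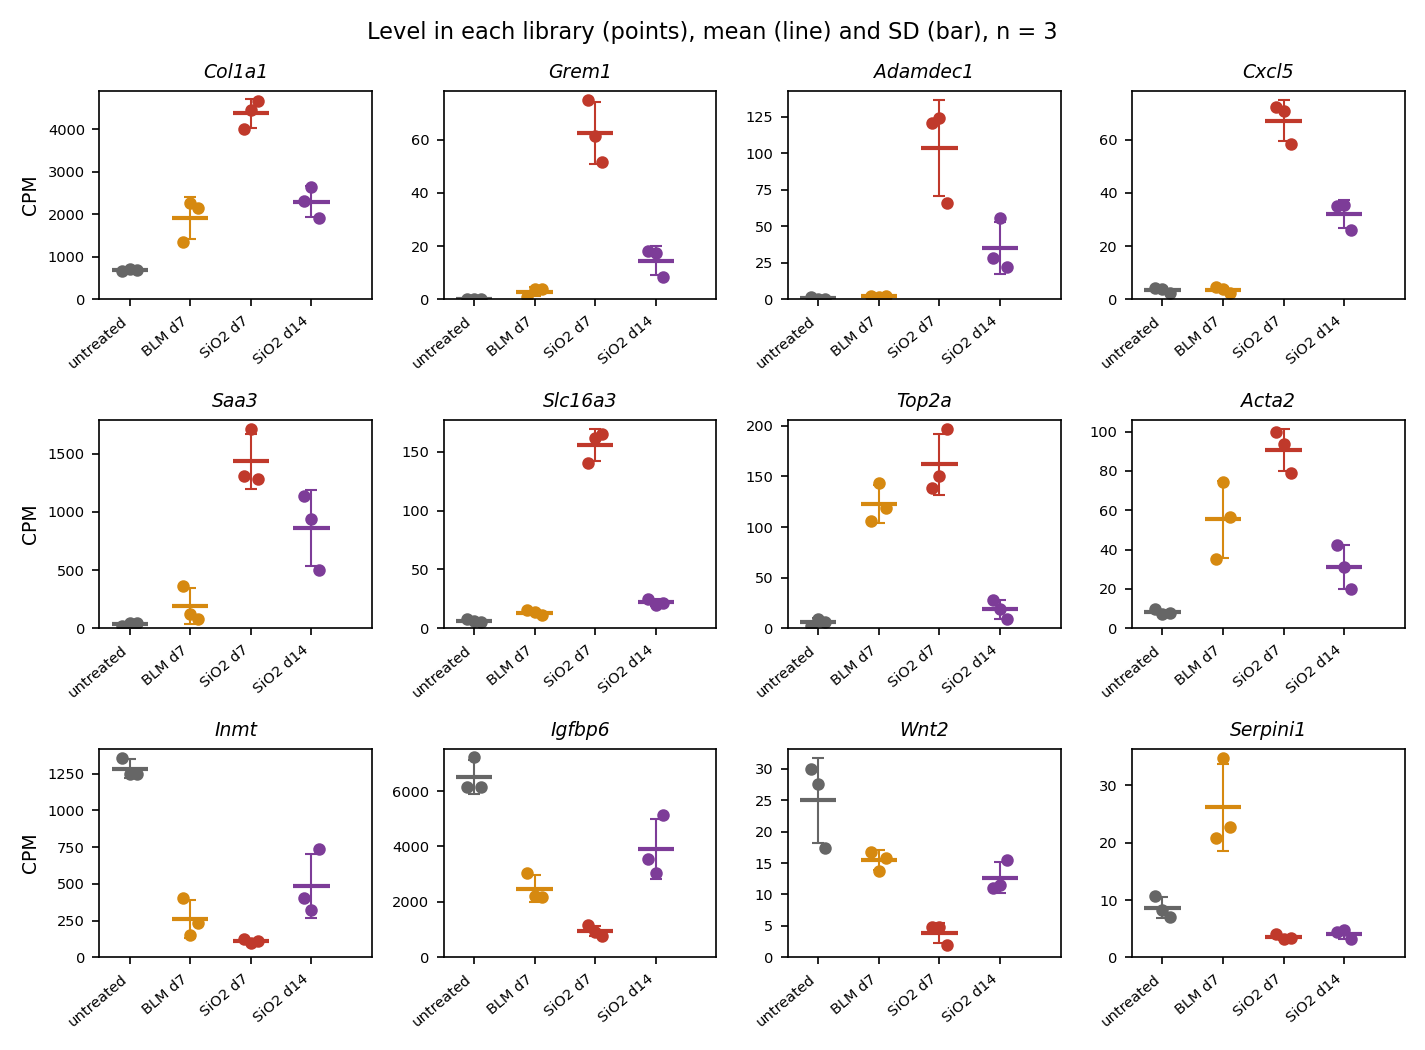
Level in CPM (y axis, from 0) of 12 genes in each of 3 libraries of untreated, BLM day 7, SiO2 day 7 and SiO2 day 14 lungs, with the mean as a line and the SD as a bar. Col1a1, Grem1, Adamdec1, Cxcl5, Saa3 and Slc16a3 are highest in the SiO2 day 7 libraries, where Inmt, Igfbp6 and Wnt2 are lowest, and Serpini1 is high in BLM libraries only.

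From day 7 to day 14 of the silica model 1420 tested genes were higher (12.2%) and 1285 lower (11.0%), and libraries did not overlap for 36.4%. This comparison shares the silica day 7 libraries with the ones above, so values are set side by side. Proliferation genes were lower at day 14, as 0 of 29 were higher and 24 lower in replication and 0 of 38 were higher and 36 lower in mitosis (12 and 20 lower among genes of at least 10 CPM). Ncapg was at 6.24, 4.53 and 2.67 CPM at day 14 (log2 -2.88 ± 0.25, adjusted p = 2.20e-11). Glycolysis genes were lower at day 14 for 13 of 26 and higher for 0 (1 without SiO2 day 14 replicate 2, and 2 at an unadjusted p under 0.05), with Slc16a3 at 25.3, 19.7 and 21.1 CPM (log2 -2.82 ± 0.16, adjusted p = 1.30e-16). Both genes had day 14 libraries under all day 7 libraries.

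Of fibrillar collagens 6 of 10 were lower at day 14 and 0 higher, with a median of -0.77. Of amino acid and ATF4 genes 6 of 26 were higher and 13 lower, or 7 lower without SiO2 day 7 replicate 3, and 8 lower and 3 higher without SiO2 day 14 replicate 3. They included Ddit4 (log2 -2.71 ± 0.26). Of contractile genes 10 of 17 were lower, with Actg2 at 50.2, 44.5 and 31.6 CPM (log2 -2.74 ± 0.33, adjusted p = 2.01e-05). H19 (log2 -4.42 ± 0.32), Ptprn (log2 -3.82 ± 0.32), Fbn2 (log2 -5.06 ± 0.48), Inhba (log2 -3.09 ± 0.35) and the myofibroblast gene Lrrc15 (log2 -4.40 ± 0.36) were lower at day 14.

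Alveolar genes were higher at day 14 for 18 of 27 and lower for 0 (median 0.92), and adventitial genes for 17 of 25 (median 1.36). Lrat was at 214, 96.2 and 299 CPM at day 14 (log2 2.59 ± 0.43, adjusted p = 0.000379) and Igfbp6 at 3531, 3054 and 5132 CPM (log2 2.04 ± 0.20, adjusted p = 2.02e-06). The day 14 libraries of Igfbp6 lay above those of day 7. Immediate-early genes were higher for 15 of 23 (7 without SiO2 day 14 replicate 3) and mesothelial markers for 8 of 9. Complement genes were higher for 10 of 17 and lower for 0. Il33 was higher at day 14 than at day 7 (log2 1.20 ± 0.20), where it had already risen.

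**Figure D5:**
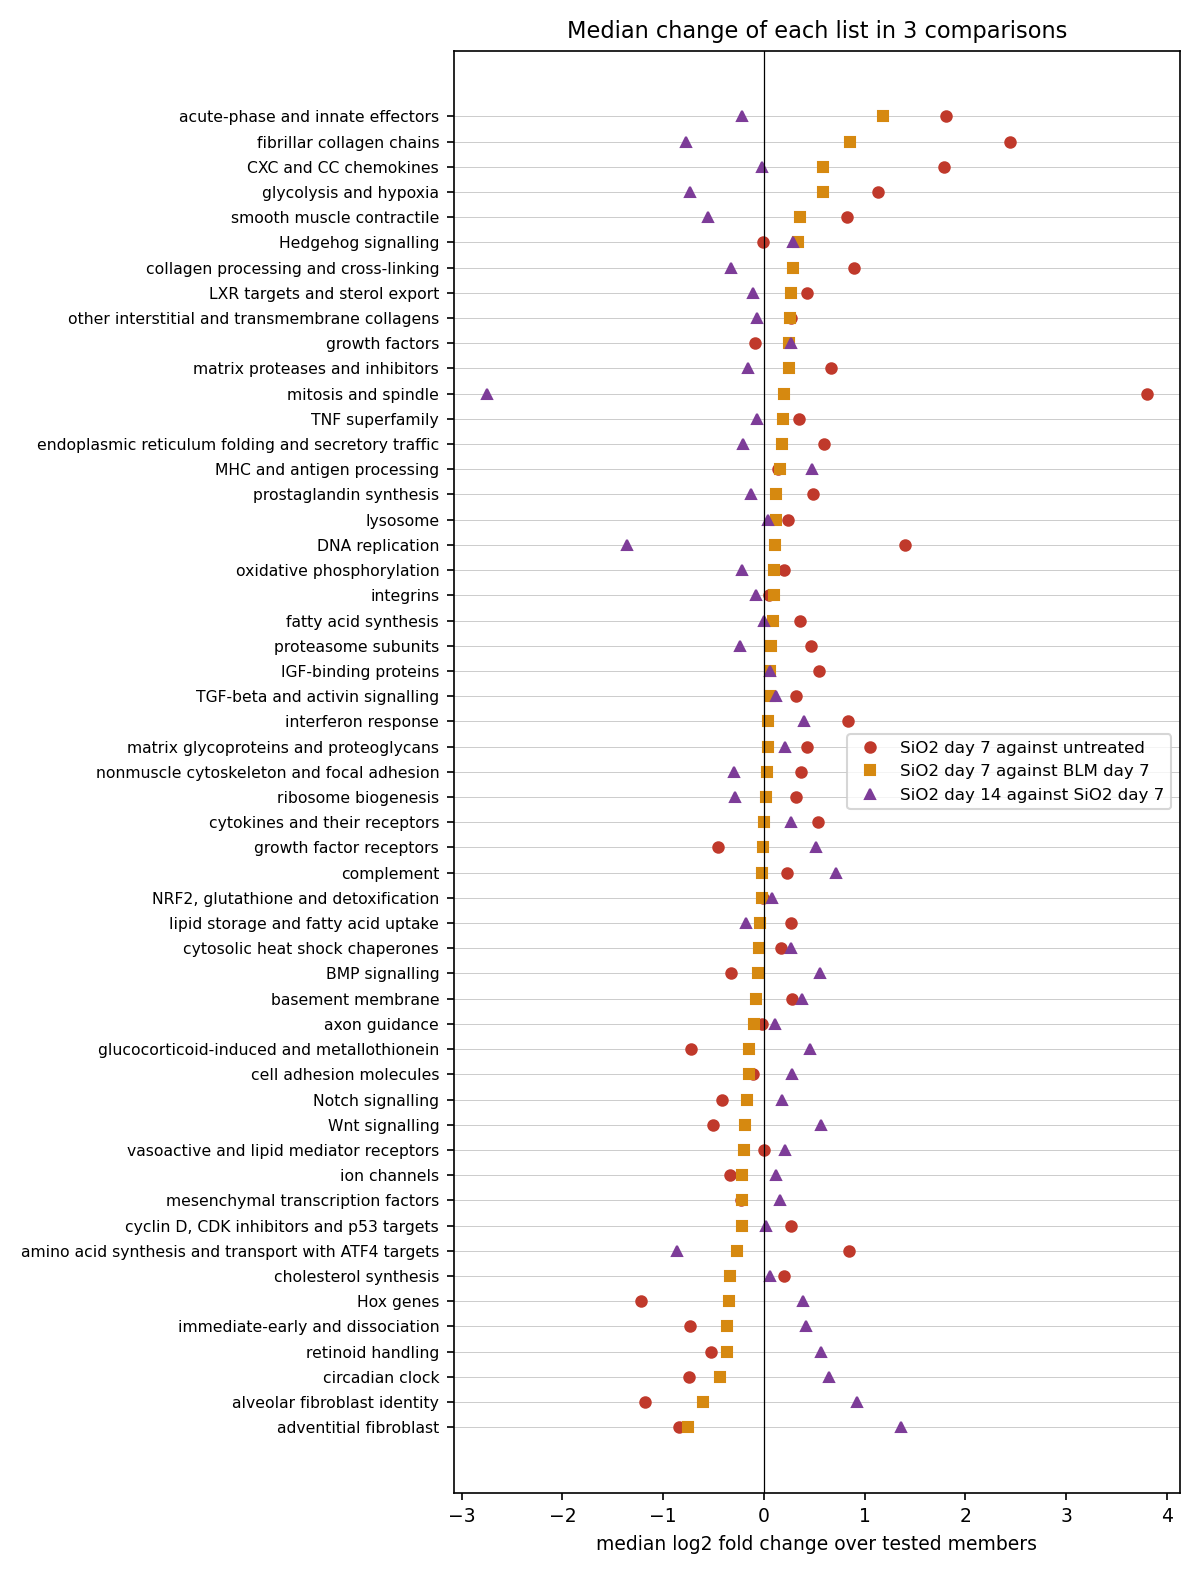
Median log2 fold change over the tested members of each list (x axis) for silica day 7 against untreated (circles), against BLM day 7 (squares) and for silica day 14 against silica day 7 (triangles), ordered by the squares. Acute-phase, fibrillar collagen and glycolysis genes lie among the highest squares (1.18, 0.85 and 0.59), and mitosis genes lie near 0 there (0.20).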

How the data were processed

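The authors deposited 1 table per library with a raw count per gene symbol. Bowtie2 2.2.5 and the mm10 build are named in the submitters' processing notes, and the counter and annotation are not given in the sources used here. Tags carried no molecular identifiers, so counting intervals and lower bounds hold for counting error alone. The 21 libraries (2080636 to 4477283 counts) were fitted together as 7 groups of 3 with edgeR 4.0.16 in R 4.3.3, by the robust quasi-likelihood test with TMM scaling and 14 residual degrees of freedom. After edgeR's filter on low counts 11669 of 23204 symbols were tested, which held 99.7% of the counts, and p-values were adjusted by Benjamini-Hochberg over all of them. The script was tested on simulated data.

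Against a group at 0 counts, a fold is a lower bound from a floor of 3 counts over that group. With 1 to 3 counts it is a ratio with an exact 95% counting interval. Counts of near-identical genes, and of genes that overlap on either strand, are uncertain, since strand use in counting was not stated.

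The comparison, the 62 gene lists (53 of processes, 9 of markers, 1291 of 1606 symbols tested) and the rule for named genes were chosen with earlier results of these data known. The rule took the 15 largest rises and falls of at least 10 CPM among called genes whose silica and untreated libraries did not overlap. It also took the 8 largest CPM gains and losses. In each list it took the 4 smallest p-values, both extremes and the most abundant gene not called. It added the 8 largest differences in each direction between silica and BLM and between days, and a fixed set of markers. Pgk1, Eno1, Ldha, Egln3, Bnip3, Pdk1, Adm, Hk1, Pfkp and the promoters of Oas1a and Slc16a3 were chosen after their values were seen. Myl9 was named through its promoter. A few list members are not reported here by name. Promoters (250 bases before to 50 after a start) came from RefSeq for 8398 tested genes.

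Alternatives were DESeq2 1.42.0, limma-voom 3.58.1, other scalings, other filters, a fit of only the 2 groups, a replicate block and leaving out each library in turn. For lists and genes between agents and between days, these alternatives were added after the data were seen.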

Additional observations from a re-analysis of the deposited data

Results flagged for a closer look

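Among the genes named here, 2 were called in opposite directions in the models against untreated lungs and were also called in the direct test between them. Serpini1, which encodes the serine protease inhibitor neuroserpin, was at 8.64 ± 1.82 CPM in untreated, 3.50 ± 0.450 CPM in silica and 26.2 ± 7.57 CPM in BLM libraries on day 7 (SD, n = 3). It fell with silica and rose with BLM, and the direct difference of silica minus BLM was log2 -2.90 ± 0.32 (edgeR adjusted p = 2.95e-08). Msln, a mesothelial marker, likewise differed by log2 -1.58 ± 0.26 (edgeR adjusted p = 0.000112), being lower than untreated with silica and higher with BLM. Its call against untreated was lost without untreated replicate 2 or 3 or SiO2 day 7 replicate 2 or 3. Over all tested genes 12 met this pattern, 3 higher and 9 lower with silica.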

How the results depend on the processing

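All 84 all-gene counts under the alternatives stayed within 1.5 times the reported ones. For silica against untreated, leaving out 1 library gave 2357 to 2597 higher and 2080 to 2304 lower genes, and the other alternatives gave 2049 to 2818 and 2018 to 2728. For silica against BLM day 7, leaving out 1 library gave 417 to 551 and 409 to 588, and the others 512 to 625 and 538 to 721. For day 14 against day 7 these were 1046 to 1340 and 981 to 1210, and 1220 to 1409 and 1086 to 1327. With the replicate block the counts were 2702 and 2380, 603 and 594, and 1391 and 1274 in the same order. Same-numbered untreated and silica libraries correlated at 0.0287, -0.00174 and 0.00856 in their deviations from the group means. With 3 libraries per group, this cannot show whether the replicate numbers pair the samples. No called value given for a gene changed direction. Of the values near 0 that were not called, those of Lamc1, Vim, Piezo1 and Stat2 against untreated and of Ncapg against BLM changed sign under some alternatives.

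Of the list counts against untreated, 56 of 1736 alternative values moved by over 1.5 times. Between agents and between days 382 of 3472 did, many from counts of 1 to 5, so those comparisons are less firm. Of the named genes 14 lost their call against untreated under some alternative, and the cause was not tested. Scaling moved the median log2 difference of all genes from 0.04 by TMM to 0.02 by relative log expression and -0.04 by upper quartile. Genes of a few counts per library limit precision, and a filter of at least 10 CPM removes many proliferation genes.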
